A study of Vigna subterranea with 10 samples.

Results

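The flavonoid and isoflavonoid synthesis genes of bambara groundnut (Vigna subterranea) were followed here in leaflets at 3 temperatures. Members were the probe sets of the Affymetrix Soybean GeneChip whose only gene symbol began with the name of an enzyme of these pathways, and 62 of the 36578 soybean probe sets met this rule, under 30 symbols. Expression is given as the deposited log2 value, and a probe set is called bright where its mean over the 9 RNA arrays was at least 10 and dim otherwise. Of the 62 members 5 were bright (8.06%), against 19.2% of all probe sets. None of the 62 changed between temperatures at an adjusted p under 0.05.

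The leaflets came from 3 plants of genotype S19-3, each sampled at 27 °C, then again once they had been moved to 23 °C, and finally at 18 °C. The labels name these temperatures optimal, sub-optimal and very sub-optimal, and every leaflet was fully expanded. That gave 3 arrays at each temperature, which is what limits the precision, and the labels do not tie a replicate number to a plant. Temperature cannot be told apart from the order of sampling, leaf age or earlier sampling of the same plants, and the sources differ on the time spent at each temperature.

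Flavonoids are built from an activated cinnamic acid and malonyl units. Chalcone synthase makes the first chalcone, chalcone reductase diverts it to the deoxy form typical of legumes, and chalcone isomerase closes the ring to a flavanone. From there isoflavone synthase opens the isoflavonoid branch, a legume route to phytoalexins and to signals for nodule bacteria. Flavanone 3-hydroxylase opens the other branch, which leads to flavonols, anthocyanins and proanthocyanidins. In leaves these compounds are best known as sunscreens, antioxidants and pigments, and in many plants their genes are induced by light and cold.

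The members were distributed unevenly over these steps. Chalcone synthase was read by 12 probe sets (7 of CHS1 and 5 of CHS8), chalcone reductase by 5 and the chalcone isomerase family by 12. That family was grouped by name, and its members CHI3A1 and CHI4A are not taken here to close the ring. The isoflavonoid branch had 19, the step to flavanone and flavonol 4 (F3H and FLS1), and the anthocyanin and proanthocyanidin steps 6. The other 4 belonged to CYP93E1, which in soybean hydroxylates beta-amyrin on the way to soyasaponins, so it met the naming rule without being a flavonoid enzyme. No probe set carried a sole symbol beginning with FNS, IOMT, UGT88, CYP75, CYP71D9 or F3', so flavone synthase and the B-ring hydroxylases were not analysed here. Probe sets whose ID ends in s_at or x_at, 18 and 5 of the 62, contain probes shared with other sequences and can read several genes of a family at once.

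Probe sets of the same symbol differed widely in level on this cross-species array, so a low value alone was not read as a silent gene. CAB3, a light-harvesting chlorophyll protein abundant in every green leaf, had a mean of 18.31 on its brightest probe set and 3.67 on its dimmest. PSAD, a photosystem I subunit, ranged from 15.75 to 4.90. Of 9 leaf marker probe sets 5 were bright, against 0 of 5 probe sets on the nodule list (means of 4.32 to 8.44). The highest of these, LBD23 (8.44), met the naming rule of that list, but its symbol is not that of a nodule gene. Among 24 seed probe sets 3 were bright, namely 1 of the glycinin GY1 (11.81) and 2 of the trypsin inhibitor KTI-3 (10.76 and 10.33). On the log2 scale the summed level of the leaf markers was 18.80 to 19.18 at 27 °C, 18.71 to 18.97 at 23 °C and 18.47 to 18.57 at 18 °C, a sum carried mostly by the brightest CAB3 probe set. All 5 bright leaf probe sets had lower means at 18 °C than at 27 °C. Only 1 of the 9 was called lower, PSAD on Gma.10852.1.S1_a_at (-1.28 ± 0.26, adjusted p = 0.028 in limma with a variance trend). In that fit 309 of all 36578 probe sets were called lower at 18 °C against 27 °C. The PSAD call was lost in limma with the same spread assumed at every level (adjusted p = 0.316). Its values at 27 °C were 15.63, 16.63 and 16.55, so the difference rests partly on values above 16. The summed level of the nodule list at 27 °C, 23 °C and 18 °C was 9.19 to 9.83, 9.36 to 9.70 and 8.55 to 9.56. That of the seed markers was 13.36 to 13.65, 12.87 to 14.25 and 12.96 to 13.56. LBD23 alone read 8.43 to 9.10 at 27 °C and 7.24 to 8.70 at 18 °C, so the nodule sum does not read nodule genes alone. The part of these cell types in the results below was not tested, and in whole leaflets fewer cells of a type cannot be told apart from less RNA per cell. Levels of different probe sets are not compared as amounts of transcript.

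Replicate spread set what could be seen. The SD within temperatures had a median of 1.48 log2 units over the 57 dim members and 0.42 over the 5 bright ones, against 1.30 and 0.29 over all dim and all bright probe sets. As a result the 95% interval of a difference reached a median of 2.69 log2 units to either side for dim members, and 0.50 to 0.98 for bright ones. The members nearest the dividing level were FLS1 (10.61) on the bright side and, on the dim side, CHI2-A (9.43), HIDH (9.34) and ANS2 (9.29), the last of which reads an anthocyanidin synthase.

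**Figure D1:**
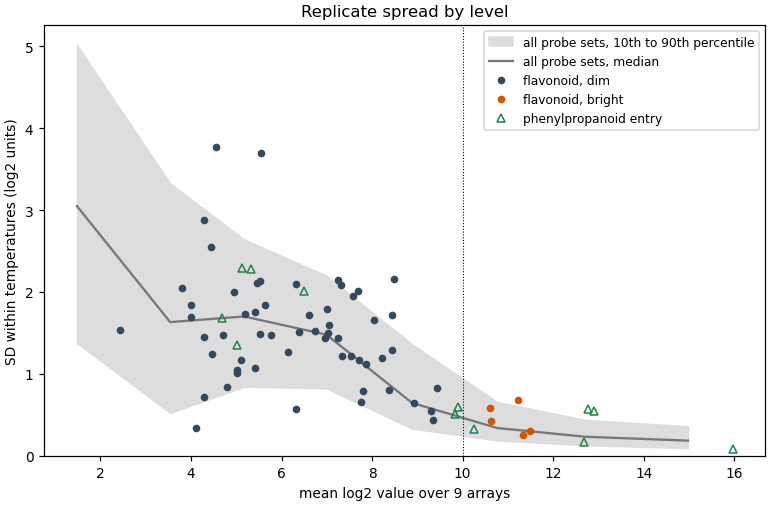
Mean log2 value over 9 arrays (horizontal axis) against the SD within temperatures (vertical axis, log2 units) for the 62 flavonoid probe sets and the 12 probe sets of the phenylpropanoid steps upstream. The grey band holds most but not all of the 36578 probe sets at each level, and the grey line is their median. Most flavonoid probe sets lie left of 10, where the median SD is 0.64 to 1.70 for means between 4 and 10, and the 5 bright ones have an SD of at most 0.68.

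Across the 3 comparisons the members gave no call. Differences were tested with limma on all 36578 probe sets, letting the assumed spread follow the level (the variance-trend fit), with Benjamini-Hochberg adjustment over the same number. At 23 °C against 27 °C 0 of 62 members passed, where 0.776% of all probe sets and 3.63% of bright ones did. The count was 0 of 62 at 18 °C against 27 °C (2.13% of all, 9.21% of bright ones) and 0 of 62 at 18 °C against 23 °C (0.943% of all, 4.28% of bright ones). Most members were dim, and such calls were rare among all 29561 dim probe sets. At 23 °C against 27 °C 8 of these rose and 21 fell, at 18 °C against 27 °C 63 and 69, and at 18 °C against 23 °C 22 and 23. A limma fit with a constant prior, which assumes the same spread at every level, gave 0 of 62 as well, while it called 0.00273%, 0.104% and 0.00547% of all probe sets.

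At an unadjusted p under 0.05 the variance-trend fit gave 6, 10 and 6 members for these comparisons, or 9.68%, 16.1% and 9.68%, beside 9.42%, 12.9% and 10.5% of all probe sets. For the 57 dim members the shares were 8.77%, 15.8% and 8.77%, beside 6.33%, 8.17% and 6.7% of all dim probe sets. In the constant-prior fit those of dim members were 14%, 22.8% and 8.77%, beside 7.19%, 9.11% and 7.72% of all dim ones. The constant-prior fit gave 9, 14 and 5, beside 7.69%, 10.6% and 8.37% of all, and the methods' t-test 3, 11 and 4, beside 8.17%, 11.3% and 9.11%. Values of the groups did not overlap for 8 members at 23 °C against 27 °C (12.9%, beside 14.8% of all probe sets), 6 of them higher at 23 °C and 2 lower (7.3% and 7.52% of all). The same held for 11 at 18 °C against 23 °C (17.7%, beside 16% of all), 8 higher at 18 °C and 3 lower (7.78% and 8.26% of all). Between 18 °C and 27 °C they did not overlap for 19 members (30.6%, beside 18.9% of all), of which 12 stood higher at 18 °C and 7 lower (8.96% and 9.94% of all). Several of the 19 share a gene or probes and are not independent.

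Members pointed in both directions. At 23 °C 31 members stood above and 31 below their level at 27 °C (median difference 0.01). At 18 °C 27 were higher and 35 lower than at 27 °C, the median being -0.16 beside -0.06 over all probe sets, and the arrays' own medians differed by -0.12. Between 23 °C and 18 °C 29 stood above and 33 below their level at 23 °C, and the median of -0.12 lay beside -0.05 over all. Probe sets of the same symbol often disagreed as well. Of 14 symbols with several probe sets, all pointed the same way for 4 at 23 °C against 27 °C (CHI4A, CYP93A1, F3H and FLS1), 1 at 18 °C against 27 °C (FLS1) and 4 at 18 °C against 23 °C (CHI3A1, CHI4A, CYP93A1 and FLS1).

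**Figure D2:**
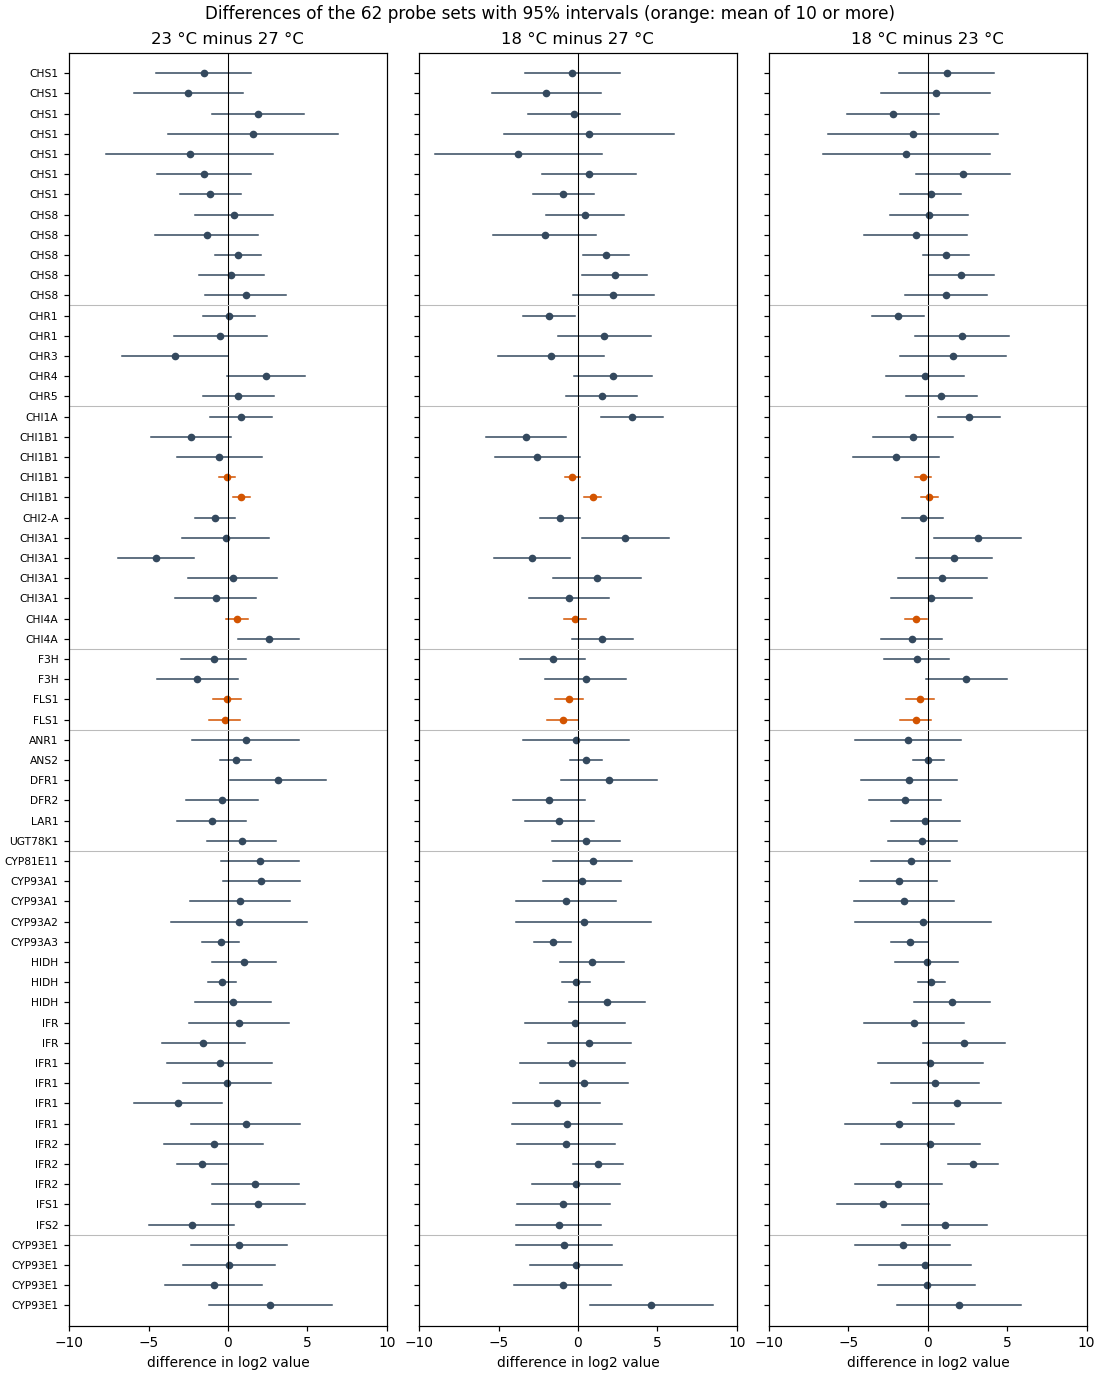
Difference in log2 value of each of the 62 probe sets (points, horizontal axis) with its 95% interval from the variance-trend limma fit (lines), for 23 °C minus 27 °C, 18 °C minus 27 °C and 18 °C minus 23 °C. Rows are grouped as chalcone synthase, chalcone reductase, chalcone isomerase family, flavanone and flavonol, anthocyanin and proanthocyanidin, isoflavonoid and CYP93E1; the 5 bright probe sets (orange) have the narrow intervals, and medians lie at 0.01, -0.16 and -0.12.

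Among bright members the lowest p-values belonged to CHI1B1, a chalcone isomerase, and to only 1 of its probe sets. GmaAffx.92003.1.S1_x_at read 10.95, 10.81 and 10.90 at 27 °C, 11.34, 12.06 and 11.82 at 23 °C and 11.66, 11.57 and 12.25 at 18 °C. Every array at the lower temperatures stood above every array at 27 °C. The difference was 0.85 ± 0.24 (SE, n = 3 arrays per temperature) at 23 °C and 0.94 ± 0.24 at 18 °C, with a 95% interval of 0.40 to 1.47 for the latter. It did not pass in either comparison (adjusted p = 0.214 and 0.0868 in the variance-trend limma fit, 0.60 and 0.39 in the constant-prior fit). For 18 °C against 27 °C it passed after each array was centred on its median (1.05 ± 0.24, adjusted p = 0.0481) and when only bright probe sets were tested (adjusted p = 0.0231), within a range of 0.0231 to 0.391 over 17 alternatives.

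GmaAffx.92003.1.S1_at, made from the same soybean transcript, showed no such step. Its values were 11.48, 11.24 and 11.70 at 27 °C, 11.44, 11.62 and 11.23 at 23 °C and 10.78, 11.17 and 11.43 at 18 °C, and the groups overlapped throughout. The difference at 18 °C against 27 °C was -0.34 ± 0.23, with an interval of -0.84 to 0.16. Subtracting it from the x_at probe set on the same array gave -0.53, -0.43 and -0.79 at 27 °C, -0.10, 0.45 and 0.59 at 23 °C and 0.88, 0.40 and 0.82 at 18 °C. The pair was picked out after its values had been seen, so this is a description with no test. Both dim CHI1B1 probe sets had lower means at 18 °C than at 27 °C. Gma.2826.1.S1_at differed by -3.27 ± 1.14, from 5.94 to 8.16 at 27 °C down to 2.94 to 4.24 at 18 °C (adjusted p = 0.218 in the variance-trend fit). Gma.2826.1.S1_x_at differed by -2.55 ± 1.22, with a range of 3.00 to 7.82 at 18 °C, and by -1.29 without 18 °C replicate 1. Gma.2826.1.S1_s_at and GmaAffx.92003.1.S1_s_at, made from the same transcripts as these pairs, were named for CHI1B1 and CHI1B2 together and so fell outside the rule. Their means were 3.67 and 4.91, and at 18 °C against 27 °C they differed by -0.63 ± 1.20 and -0.93 ± 1.33.

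CHI4A, another member of the chalcone isomerase family, had its highest means at 23 °C on both of its probe sets. The bright GmaAffx.93494.1.A1_s_at read 10.81, 10.77 and 9.91 at 27 °C, 11.47, 11.20 and 10.57 at 23 °C and 10.52, 10.36 and 10.07 at 18 °C. All arrays at 18 °C were below those at 23 °C, a difference of -0.76 ± 0.32 that did not pass (adjusted p = 0.43 in the variance-trend fit). At 23 °C against 27 °C it stood at 0.58 ± 0.32 and at 18 °C against 27 °C at -0.18 ± 0.32, with intervals of -0.12 to 1.28 and -0.89 to 0.52. The dim GmaAffx.93494.1.S1_at read 8.48, 5.64 and 5.39 at 27 °C, 8.40, 9.65 and 9.18 at 23 °C and 7.81, 8.76 and 7.57 at 18 °C. Replicate 1 at 27 °C overlapped the arrays at 23 °C, and the difference of 2.57 ± 0.88 between those temperatures did not pass (adjusted p = 0.33).

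Flavonol synthase FLS1, which turns dihydroflavonols into flavonols such as quercetin and kaempferol, was bright on both of its probe sets. GmaAffx.3256.2.S1_at read 12.01, 11.39 and 11.45 at 27 °C, 12.24, 10.40 and 11.58 at 23 °C and 10.93, 9.92 and 11.11 at 18 °C. The arrays at 18 °C all lay below those at 27 °C, by -0.96 ± 0.44 with an interval of -1.94 to 0.02 (adjusted p = 0.398). GmaAffx.3256.1.S1_at read 11.19, 10.81 and 10.41 at 27 °C, 11.34, 9.91 and 11.04 at 23 °C and 10.37, 9.65 and 10.72 at 18 °C. Here the groups overlapped, with a difference of -0.55 ± 0.40 and an interval of -1.44 to 0.33. Replicate 2 was the lowest array of its group on both probe sets at 23 °C and at 18 °C. At 23 °C against 27 °C the differences were -0.21 ± 0.44 and -0.04 ± 0.40, and without 23 °C replicate 2 they turned to 0.29 and 0.39. At 18 °C against 27 °C the differences shrank to -0.59 and -0.26 without 18 °C replicate 2. Flavanone 3-hydroxylase F3H, the step that supplies FLS1, was dim on both probe sets, which differed at 18 °C by -1.60 ± 0.93 and 0.49 ± 1.16.

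**Figure D3:**
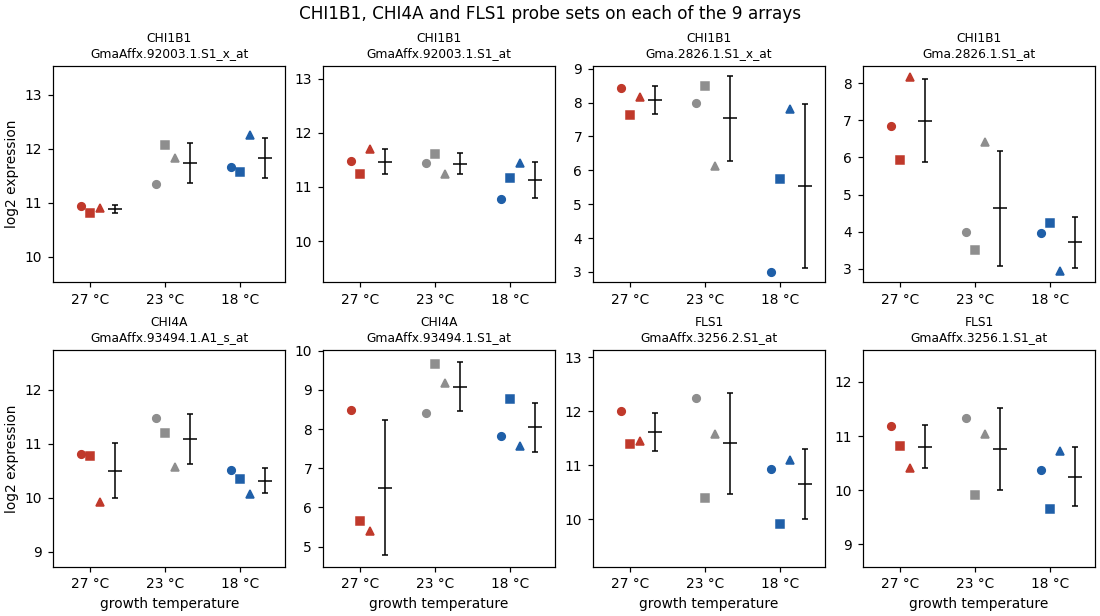
Log2 expression (vertical axis, each panel with its own range) on each of the 9 arrays by growth temperature, for the 8 probe sets of CHI1B1, CHI4A and FLS1; circles, squares and triangles are replicates 1, 2 and 3, and bars give the mean ± SD (n = 3). Arrays at 23 °C and 18 °C sit at 11.34 to 12.25 on CHI1B1 GmaAffx.92003.1.S1_x_at, above 10.81 to 10.95 at 27 °C, while GmaAffx.92003.1.S1_at of the same transcript stays between 10.78 and 11.70.

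At the entry of the pathway, chalcone synthase was dim on all 12 probe sets (means of 2.44 to 8.38). At 18 °C against 27 °C 6 were higher and 6 lower, and the median difference was 0.09. Groups did not overlap at these temperatures for 3 of 12 (25%, beside 18.9% of all probe sets and 14.3% of dim ones). All 3 were of CHS8 and had shared probes. Gma.4300.1.S1_s_at read 8.60, 7.44 and 6.69 at 27 °C, 8.50, 8.48 and 7.70 at 23 °C and 10.35, 9.04 and 8.65 at 18 °C, a difference of 1.77 ± 0.66 between 18 °C and 27 °C (adjusted p = 0.261). Gma.4300.3.S1_s_at read 6.47, 5.07 and 4.88, then 5.68, 5.64 and 5.77, then 8.33, 7.60 and 7.46, a difference of 2.32 ± 0.94 (adjusted p = 0.313). Gma.4300.3.S1_x_at stood at 2.24 ± 1.17. The CHS8 probe sets Gma.4300.1.A1_at and Gma.4300.1.S1_at did not share this order, at 0.45 ± 1.12 and -2.10 ± 1.47, and none of the 5 passed. On CHS1 the differences ran from -3.76 to 0.69, and GmaAffx.42116.1.S1_at spread from -0.87 to 6.92 within 27 °C alone. For chalcone reductase, the 2 probe sets of CHR1 pointed opposite ways at 18 °C against 27 °C, at -1.82 ± 0.76 and 1.66 ± 1.34, and the groups did not overlap on either. CHR4 read 8.39, 8.56 and 3.75 at 27 °C and 8.87 to 9.82 at 23 °C, a difference of 2.39 ± 1.12 in which replicate 3 at 27 °C stood far below the rest.

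In the variance-trend fit the dim members with the lowest p-values were CHI1A, CHI3A1 and IFR2, singled out after their values had been seen (unadjusted p under 0.01 in some comparison). At 18 °C against 27 °C the constant-prior fit put 3 other probe sets ahead of CHI1A (unadjusted p = 0.00831). They were CHS8 on Gma.4300.3.S1_s_at (0.00157), CHI1B1 on Gma.2826.1.S1_at (0.00662) and CHI3A1 on GmaAffx.2941.1.S1_x_at (0.00723). Over all comparisons the lowest in that fit were still CHI3A1 at 23 °C against 27 °C (0.000535) and IFR2 at 18 °C against 23 °C (0.000872). CHI1A, a chalcone isomerase close to CHI1B1, read 6.77, 6.03 and 8.29 at 27 °C, 6.44, 10.02 and 7.13 at 23 °C and 10.50, 10.68 and 10.19 at 18 °C on Gma.15492.1.S1_s_at. All arrays at 18 °C exceeded the other 6, and replicate 2 at 23 °C came close to them. The difference between 18 °C and 27 °C was 3.43 ± 0.89 (adjusted p = 0.0861), with an interval of 1.47 to 5.39. With the 6 arrays compared alone it passed (adjusted p = 0.029), as it did without 23 °C replicate 2 (adjusted p = 0.0271), the lowest of 16 alternatives, of which the highest gave 0.275.

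CHI3A1, a further member of the chalcone isomerase family, had probe sets that differed in sign at 18 °C against 27 °C, while all 4 were higher at 18 °C than at 23 °C. GmaAffx.2941.1.S1_x_at read 7.40, 7.91 and 7.19 at 27 °C, 2.22, 3.88 and 2.76 at 23 °C and 4.09, 6.35 and 3.38 at 18 °C. It was thus lower on all 6 cooler arrays, by -4.55 ± 1.10 at 23 °C (adjusted p = 0.11) and -2.89 ± 1.10 at 18 °C. GmaAffx.2941.1.S1_at, from the same transcript, read 3.20, 2.92 and 3.92 at 27 °C, 5.47, 0.66 and 3.50 at 23 °C and 5.89, 6.69 and 6.43 at 18 °C. Its difference was -0.14 ± 1.24 at 23 °C and 2.99 ± 1.24 at 18 °C against 27 °C (adjusted p = 0.331 for the latter). The remaining 2 probe sets of CHI3A1 differed at 18 °C by 1.20 ± 1.27 and -0.56 ± 1.16. CHI2-A, the brightest of the dim members, had means of 10.08 ± 1.07, 9.27 ± 0.59 and 8.93 ± 0.75 (SD, n = 3) at 27 °C, 23 °C and 18 °C, with overlapping values.

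In the isoflavonoid branch none of 19 probe sets was bright, and at 18 °C against 27 °C 8 stood above and 11 below, the median being -0.14. Isoflavone synthase, the branch point enzyme, was read by IFS1 (means of 6.27, 8.18 and 5.34 at 27 °C, 23 °C and 18 °C) and IFS2 (7.91, 5.64 and 6.69), and the groups overlapped on both in all comparisons. HIDH, the dehydratase that follows it, was brightest on GmaAffx.43343.3.S1_s_at, with values between 8.85 and 10.07 and a difference of -0.14 ± 0.40 at 18 °C against 27 °C. On HIDH GmaAffx.37677.1.S1_s_at (mean 4.11) every cooler array stood above those at 27 °C, by 1.00 ± 0.92 at 23 °C and 0.91 ± 0.92 at 18 °C. HIDH on GmaAffx.92722.1.S1_at (mean 5.02) differed by 1.81 ± 1.08 at 18 °C against 27 °C, with overlapping values. None of these HIDH differences passed. IFR2, an isoflavone reductase by name, was measured on GmaAffx.93317.1.S1_at at 6.67, 8.35 and 8.64 at 27 °C, 6.15, 5.99 and 6.69 at 23 °C and 8.94, 9.29 and 9.14 at 18 °C. The difference at 23 °C against 27 °C was -1.61 ± 0.72, with overlapping values, and did not pass (adjusted p = 0.514). At 18 °C it exceeded all other arrays, by 2.85 ± 0.72 over 23 °C (adjusted p = 0.116) and 1.24 ± 0.72 over 27 °C. The other 2 IFR2 probe sets stood at 0.14 ± 1.42 and -1.86 ± 1.25 for 18 °C against 23 °C. CYP93A3, a relative of the soybean pterocarpan hydroxylase CYP93A1, read 10.29, 8.91 and 9.66 at 27 °C, 8.50, 9.57 and 9.42 at 23 °C and 8.66, 7.35 and 8.05 at 18 °C. Its arrays at 18 °C lay below those at 27 °C, by -1.60 ± 0.52 (adjusted p = 0.187). CYP81E11, of a family of isoflavone hydroxylases, ranged from 4.77 to 9.63.

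**Figure D4:**
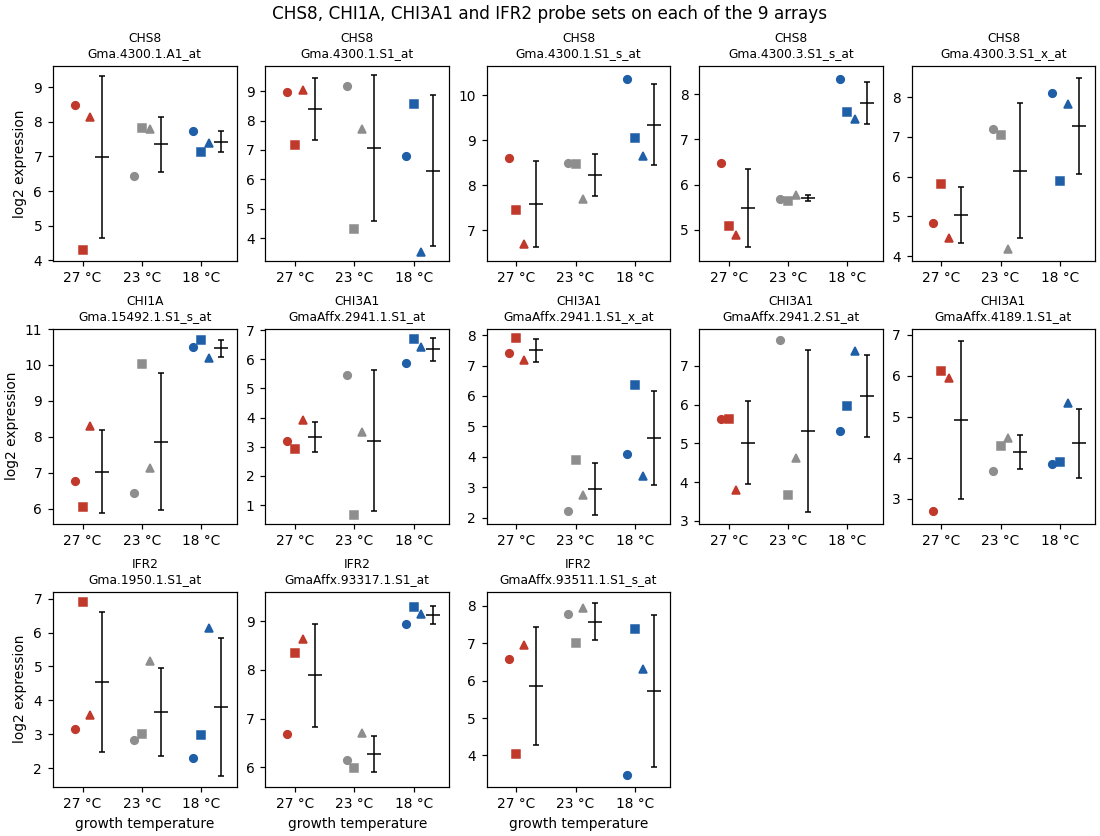
Log2 expression (vertical axis, each panel with its own range) on each of the 9 arrays by growth temperature, for all probe sets of CHS8, CHI1A, CHI3A1 and IFR2; circles, squares and triangles are replicates 1, 2 and 3, and bars give the mean ± SD (n = 3). CHI1A sits at 10.19 to 10.68 at 18 °C against 6.03 to 8.29 at 27 °C, and the CHI3A1 probe sets GmaAffx.2941.1.S1_at and GmaAffx.2941.1.S1_x_at lie on opposite sides of their 27 °C values at 18 °C.

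The anthocyanin and proanthocyanidin steps were dim on all 6 probe sets, and at 18 °C 3 were higher and 3 lower than at 27 °C. ANS2, the anthocyanidin synthase, was the most precise of them, with means of 8.96 ± 0.78, 9.45 ± 0.52 and 9.47 ± 0.08 (SD, n = 3), and its difference at 18 °C against 27 °C was 0.51 ± 0.45. Dihydroflavonol reductase, the step before it, gave DFR1 values of 3.44, 3.57 and 3.45 at 27 °C, 4.27, 9.40 and 6.24 at 23 °C and 3.82, 6.75 and 5.78 at 18 °C. These stood above 27 °C on every cooler array, and the difference of 3.15 ± 1.37 at 23 °C did not pass (adjusted p = 0.503). DFR2 differed the other way at 18 °C, by -1.81 ± 1.03. Anthocyanidin reductase ANR1 and leucoanthocyanidin reductase LAR1, which make the units of proanthocyanidins, differed by -0.13 ± 1.53 and -1.17 ± 0.99, and the anthocyanidin glucosyltransferase UGT78K1 by 0.50 ± 0.98. None of these passed. Of the CYP93E1 probe sets, GmaAffx.29786.1.S1_at stood at 4.63 ± 1.77 for 18 °C against 27 °C (adjusted p = 0.276) and the other 3 between -0.97 and -0.12.

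Upstream of chalcone synthase, the steps shared with lignin were read by 12 probe sets of phenylalanine ammonia lyase (PAL), cinnamate 4-hydroxylase (C4H) and 4-coumarate CoA ligase (4CL), of which 5 were bright. In the variance-trend fit 1 of 12 rose at 23 °C against 27 °C (0.435% of all probe sets rose) and 3 rose at 18 °C against 27 °C (1.28%). At 18 °C against 23 °C 0 rose (0.55%), and none fell in any comparison. All those called were bright. Among the 7017 bright probe sets of the array 151, 406 and 179 rose in these comparisons. Those that rose at 18 °C were 2 probe sets of PAL2.1 and 1 of 4CL2, while the constant-prior fit called 0 of 12 in each comparison. The remaining probe set of each gene was dim and had a lower mean at 18 °C than at 27 °C. It differed by -2.11 ± 1.64 for PAL2.1 (GmaAffx.86773.2.S1_at) and -1.96 ± 1.21 for 4CL2 (GmaAffx.91641.1.S1_s_at), and neither passed. Of the 12, 10 stood higher and 2 lower at 23 °C than at 27 °C, and 6 higher and 6 lower at 18 °C. PAL2.1 on GmaAffx.29412.1.S1_s_at read 15.76, 15.75 and 15.76 at 27 °C, 15.86, 15.85 and 15.89 at 23 °C and 16.11, 16.29 and 16.39 at 18 °C. Its difference of 0.51 ± 0.09 rests on values above 16, and with values held to 0 to 16 the call was lost (0.24, adjusted p = 0.122). PAL2.1 on Gma.2266.1.S1_s_at read 12.00, 11.80 and 11.12 at 27 °C, 13.98, 13.48 and 13.58 at 23 °C and 13.94, 13.78 and 12.52 at 18 °C. 4CL2 on Gma.4928.1.S1_a_at read 11.98, 11.93 and 10.83, then 13.03, 14.00 and 12.52, then 13.50, 13.60 and 13.44. The bright probe sets of C4H and 4CL3 differed by -0.13 ± 0.29 and -0.03 ± 0.17 at 18 °C against 27 °C, with intervals of -0.78 to 0.52 and -0.39 to 0.34. Whether the entry steps and the flavonoid steps responded differently was not tested. The single call at 23 °C ended when any 1 of the arrays at 27 °C or 23 °C was left out, and at 18 °C the count was 0 without replicate 2 or 3 at 27 °C or replicate 2 at 18 °C, and 1 without replicate 1 or 3 at 18 °C.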

How the data were processed

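RNA of 9 leaflets, 3 at each of 27 °C, 23 °C and 18 °C, was measured on the Affymetrix Soybean GeneChip, a cross-species use. The deposited values are log2 expression, made by the authors with RMA (version not given in the sources used here) on those probes that genomic DNA of bambara groundnut bound well, at a threshold that the sources used here do not tie to this table. Of these, 1312 values lay above 16 and 1434 below 0, so a further step is unknown and differences may not equal true log2 fold changes. The column of the genomic DNA array is blank and was not used. Symbols came from the array annotation, which gives 8365 probe sets a sole symbol.

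All 36578 probe sets were fitted without a filter in limma 3.58.1 (R 4.3.3; lmFit, eBayes with trend and robust, two-sided, 6 residual degrees of freedom), with Benjamini-Hochberg adjustment and a threshold of 0.05. Members, lists and the choice of this fit over the constant-prior limma fit were made with earlier results of these data known. By rule, each bright member, each member called and every other probe set of those symbols was described by array. Alternatives were the constant prior, median centring, quantile normalization, values held to 0 to 16, bright probe sets only, the 6 arrays compared, a replicate block, the methods' t-test (equal variances) and leaving out each array. The t-test here ran on all 36578 probe sets at the threshold of 0.05. The paper kept only probe sets present on every array and also set a fold-change limit and a stricter threshold. Counts from the t-test here are therefore not those of the paper. P-values reflect only how leaflets of the same 3 plants varied.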

Additional observations from a re-analysis of the deposited data

How the results depend on the processing

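The count of flavonoid probe sets called stayed at 0 at 23 °C and at 18 °C against 23 °C under every alternative, single arrays left out included (0 to 0). At 18 °C against 27 °C it became 1 after median centring (CHI1B1), 1 among bright probe sets only (CHI1B1) and 1 with the 6 arrays compared (CHI1A), and was 0 to 1 without single arrays. Phenylpropanoid entry calls at 23 °C against 27 °C went from 1 to 0 in the constant-prior limma fit, 2 among bright probe sets only, 2 with a replicate block, 0 in the methods' t-test and 0 to 1 without single arrays. At 18 °C against 27 °C they went from 3 to 0 in the constant-prior fit and 0 in the methods' t-test, to 2 with values held to 0 to 16 and 2 with 6 arrays (each time without a PAL2.1 probe set), and to 0 to 3 without single arrays. At 18 °C against 23 °C they went from 0 to 1 after centring, 1 after quantile normalization and 1 among bright probe sets only, and were 0 to 0 without single arrays. Over all probe sets, calls at 23 °C against 27 °C numbered 284, but 1 with the constant prior, 524 among bright probe sets only, 159 with 6 arrays and 1 in the methods' t-test. At 18 °C against 27 °C they numbered 778, but 38, 1322 with bright probe sets only and 0 in the t-test, and at 18 °C against 23 °C 345, but 2, 798, 160 with 6 arrays and 3 in the t-test. The cause of these moves was not tested.

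Of 33 differences of 11 probe sets, 6 changed sign under some of 17 alternatives, 10 times in all, and none of these passed. CHI1B1 on GmaAffx.92003.1.S1_x_at reached -0.0022 at 18 °C against 23 °C after quantile normalization, and ran from -0.13 to 0.24 without single arrays. At 23 °C against 27 °C, without single arrays, CHI1B1 ran from -0.16 to 0.0700 on GmaAffx.92003.1.S1_at and from -1.02 to 0.16 on Gma.2826.1.S1_x_at, FLS1 from -0.33 to 0.39 on GmaAffx.3256.1.S1_at and from -0.62 to 0.29 on GmaAffx.3256.2.S1_at, and CHI1A from -0.25 to 1.55.

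With the replicate block 0 flavonoid probe sets were called in each comparison. Deviations of arrays with the same number correlated at -0.03 to 0.21 over bright probe sets, and those with different numbers at -0.18 to 0.12. An array correlated best with its own number in 11 of 18 checks, which reuse the same correlations and were set against no baseline. Since the ranges overlap and not every same-number correlation was positive, whether numbers follow plants cannot be told from these values. The labels do not state it either. Dim probe sets limit the rest, since a 95% interval there reached a median of 2.69 log2 units to either side.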
